A study of Homo sapiens with 6 samples.

Results

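The 10 genes described here encode the machinery with which human cells sense oxygen through hypoxia-inducible factors (HIFs): the 3 alpha subunits HIF1A, EPAS1 and HIF3A, the dimer partners ARNT and ARNT2, the prolyl hydroxylases EGLN1, EGLN2 and EGLN3, the asparaginyl hydroxylase HIF1AN and the ubiquitin ligase subunit VHL. They were taken by symbol from tables of 24462 gene symbols, and each of the 10 had a line of its own in every table. Every library came from the cell line LS 174T, which was derived from a human colon tumour, secretes mucins and stands in for goblet cells in culture. The propionate group (n = 3 libraries) received 4 mM propionate, a short-chain fatty acid made by gut bacteria, for 4 h, and the control group (n = 3 libraries) received none. Both groups were grown at passage 21 to 23 in RPMI medium with fetal bovine serum in a CO2 incubator. No label gives a hypoxic treatment of either group. The series title names HIF-2α, the product of EPAS1, as part of the path by which propionate acts on the mucin gene MUC2. Whether replicate libraries were separate cultures is not stated in the labels, and the p-values therefore reflect library-to-library spread that may be technical.

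In oxygenated cells the prolyl hydroxylases mark HIF alpha proteins, using oxygen, iron and 2-oxoglutarate, and VHL then directs the marked proteins to the proteasome. When oxygen falls the alpha subunits persist, pair with ARNT and switch on genes of glycolysis, angiogenesis and iron uptake. This control acts mainly on protein, which transcript counts do not show. In the intestinal epithelium HIF-2α is known for driving iron absorption genes.

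Promoter windows, from 250 bases before to 50 after the annotated start, are shown for the called members EPAS1 and EGLN3 and for EGLN1, which had the larger difference of the other hydroxylases. RefSeq windows were found for 8 of the 10 members. The sequences are RefSeq's on GRCh38.p14, read 5′ to 3′ on the gene's own strand, and capitals mark the hypoxia response core ACGTG or GCGTG, searched on both strands.
EPAS1 (chr2:46297157-46297456, plus strand): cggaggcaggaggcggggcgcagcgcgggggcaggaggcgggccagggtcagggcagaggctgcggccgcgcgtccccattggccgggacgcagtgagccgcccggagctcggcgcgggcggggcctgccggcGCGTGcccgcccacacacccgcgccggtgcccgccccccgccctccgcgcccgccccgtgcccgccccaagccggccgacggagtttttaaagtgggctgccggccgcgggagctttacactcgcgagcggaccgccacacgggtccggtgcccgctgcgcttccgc
EGLN3 (chr14:33951025-33951324, minus strand): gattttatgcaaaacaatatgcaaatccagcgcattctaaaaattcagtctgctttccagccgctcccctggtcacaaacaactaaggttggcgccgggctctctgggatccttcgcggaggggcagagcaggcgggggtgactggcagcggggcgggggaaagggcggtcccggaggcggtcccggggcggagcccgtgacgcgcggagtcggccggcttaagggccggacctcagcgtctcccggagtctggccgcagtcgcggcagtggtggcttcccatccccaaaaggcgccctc
EGLN1 (chr1:231422238-231422537, minus strand): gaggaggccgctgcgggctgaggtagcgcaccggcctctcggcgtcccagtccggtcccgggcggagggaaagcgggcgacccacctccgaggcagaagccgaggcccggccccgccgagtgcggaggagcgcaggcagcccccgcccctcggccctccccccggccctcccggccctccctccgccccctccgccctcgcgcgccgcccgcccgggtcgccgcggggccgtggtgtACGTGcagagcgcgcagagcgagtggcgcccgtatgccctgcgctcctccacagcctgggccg
The EPAS1 window held 1 GCGTG and the EGLN1 window held 1 ACGTG, while the EGLN3 window held neither. Of 35116 promoter windows of this length, 21.4% held ACGTG, 36.5% held GCGTG and 48.4% held at least 1 of both, so such matches are common. The windows of EPAS1 and EGLN1 were 80.0% G or C, and that of EGLN3 was 65.0%. The first window listed for EGLN2 held ACGTG within the palindrome CACGTG, a motif found in 7.26% of windows, the first windows listed for HIF1A and HIF3A held 1 and 3 copies of GCGTG, and the windows of ARNT and HIF1AN held neither core. The matches are a description of letters and were not measured as binding sites.

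Library totals ranged from 11645597 to 12746170 reads in the propionate group and from 11603288 to 11921005 reads in the control group. The floor was set at 3 reads, which is 0.235 to 0.259 CPM depending on the library; CPM are reads per 1000000 reads of a library. Reads were counted without known molecular identifiers, so floors and read-count intervals cover counting error only. The 12 markers of the intestinal epithelium summed to 6240 to 6965 CPM with propionate and 5172 to 6228 CPM in control. By the test used below, 4 of them were higher (KRT18, KRT19, CEACAM5 and LGALS4) and 2 lower (CDX1 and CDX2), with a median log2 fold change of 0.21. KRT19, a keratin gene, was at 977.6 ± 83.0 CPM in propionate libraries and 719.1 ± 107.7 CPM in control libraries. CDX2, an intestinal transcription factor gene, was at 157.6 ± 10.6 CPM in propionate libraries and 206.8 ± 29.1 CPM in control libraries, and KRT20, a keratin gene of differentiated epithelium, was low, at 1.37 CPM with propionate and 1.26 CPM in control. EPCAM, which was not called, was at 621.9 ± 19.9 CPM in propionate libraries and 671.4 ± 33.8 CPM in control libraries (SD, n = 3 each). Of 17 markers of other cell types, 12 had any read, and their summed level was 30.6 to 33.4 CPM with propionate and 35.0 to 39.9 CPM in control. PTPRC, the general leukocyte marker, averaged 0.0794 CPM with propionate and had no read in control, and the endothelial markers VWF and CDH5 had no read in any library. Of the 5 such markers with enough reads to be tested, 2 were higher and 1 was lower by the test used below. COL1A1, a fibroblast collagen gene, was higher, at 3.68 ± 0.665 CPM in propionate libraries and 0.886 ± 0.237 CPM in control libraries. It passed the filter on low counts only through its propionate libraries. COL3A1, COL1A2 and DCN, also listed, did not share this rise. PDGFRB, listed too but not tested, was at 0.923 CPM with propionate and 0.573 CPM in control, with overlapping groups. COL3A1, not tested, was at 0.477 CPM with propionate and 1.07 CPM in control. COL1A2 had no read with propionate, and DCN had none in any library. The part of such markers in the results was not tested.

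Propionate libraries had more EPAS1 and EGLN3 transcript than control libraries, and no other tested member passed the threshold in the unpaired main test. Of the 10 members, 8 had enough reads to be tested, and HIF3A and ARNT2 did not. By edgeR's quasi-likelihood test with a Benjamini-Hochberg adjusted p under 0.05 over 13605 genes, 2 members were higher and 0 were lower. With the replicate number as a block, edgeR called 3 members higher (ARNT in addition) and 2 lower (EGLN1 and EGLN2). The block also called more genes over all: 2980 of 13605 were higher and 3074 lower, against 2343 and 2316 in the main test. At an unadjusted p under 0.05, EGLN1 and EGLN2 were also lower, and limma-voom called 1 member lower where DESeq2 called 0. By the main test, 17.2% of all tested genes were higher, 17.0% lower and 34.2% called in either direction. Its 2 called members of 8 are 25%, under the 34.2% called in either direction. Both were higher, and 25% is over the 17.2% called higher. With 8 tested members, neither difference was tested. In 4 of the 8 tested members the groups did not overlap (EPAS1 and EGLN3 above control, EGLN1 and EGLN2 below), against 45.2% of all tested genes, with 22.4% above and 22.7% below. EPAS1 passed the filter on low counts only through its propionate libraries, so the count of tested members depends on that rise.

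**Figure D1:**
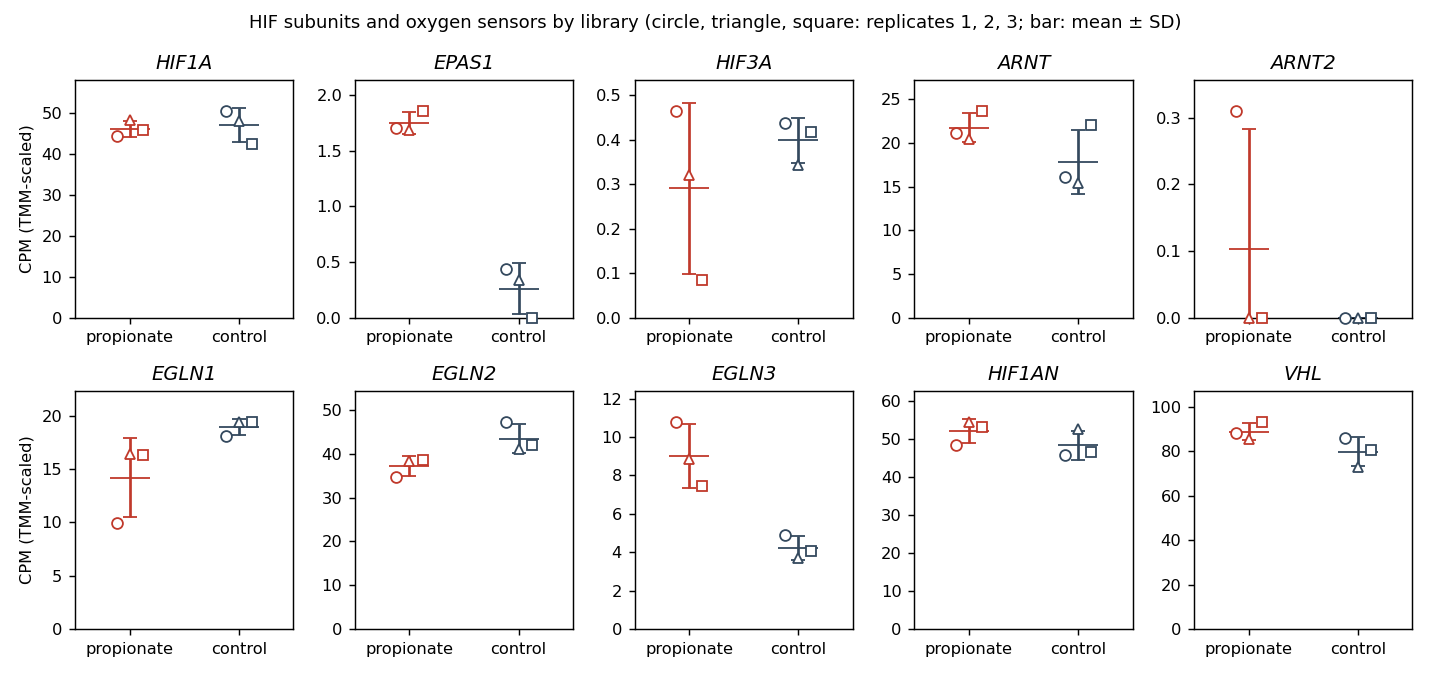
TMM-scaled CPM (vertical axis, from 0) of each member in the 3 propionate libraries (left, red) and 3 control libraries (right, dark); horizontal bars are means and whiskers are SDs. The EPAS1 and EGLN3 propionate libraries all lie above control, EGLN1 and EGLN2 lie below it, and HIF3A and ARNT2 stay under 0.5 CPM throughout.

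Of the alpha subunits, EPAS1 was the gene with the higher level after propionate. It had 22, 21 and 22 reads in propionate libraries and 5, 4 and 0 reads in control libraries, which is 1.71, 1.69 and 1.86 CPM with propionate and 0.437, 0.342 and 0 CPM in control. The propionate libraries lay close together and all above the control libraries. EPAS1 (chromosome 2, 46293667 to 46386703, plus strand, in GENCODE 29 on GRCh38) encodes HIF-2α, the alpha subunit studied for erythropoietin and iron control. Its summed reads were 65 with propionate and 9 in control, a ratio after scaling to library totals of 6.90 (exact binomial 95% interval 3.42 to 15.8). In such bulk libraries a higher level per cell and a larger number of expressing cells cannot be told apart. The fitted log2 fold change was 2.72 (SE 0.590, edgeR adjusted p = 0.00140). Without control library 3, the one with no EPAS1 read, it was 2.14 (edgeR adjusted p = 0.00716). All 3 control libraries were near the floor, so the size of the change is known less well than its direction.

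HIF1A, which encodes the alpha subunit present in most cell types, was at 44.3, 48.2 and 45.8 CPM in propionate libraries and 50.6, 48.1 and 42.5 CPM in control libraries. The groups overlapped. The log2 fold change was -0.03 (95% interval -0.24 to 0.18, edgeR adjusted p = 0.854), an interval that leaves room for changes up to that size in either direction. HIF1A lies on chromosome 14, 61695513 to 61748259, plus strand, in GENCODE 29 on GRCh38. In RefSeq's annotation the antisense gene HIF1A-AS2 lies across the 3′ end of HIF1A, and HIF1A-AS1 across its start, while GENCODE 29 lists 0 exon bases shared by HIF1A and HIF1A-AS2.

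The counts listed for HIF1A and HIF1A-AS2 stayed in nearly 1 ratio over the libraries. HIF1A-AS2 had 547, 575 and 517 reads in propionate libraries, where HIF1A had 571, 600 and 541. In control libraries HIF1A-AS2 had 550, 532 and 489 reads, where HIF1A had 578, 562 and 510. The antisense count was thus between 94.7% and 95.9% of the HIF1A count in each of the 6 libraries. No source used here gives the strand setting or annotation of the counting, so reads of the sense and antisense genes cannot be told apart. The HIF1A value may hold both, or the same reads may be listed under both symbols, which the tables do not settle. HIF1A-AS1 had 7, 1 and 4 reads with propionate and 6, 4 and 10 reads in control.

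**Figure D2:**
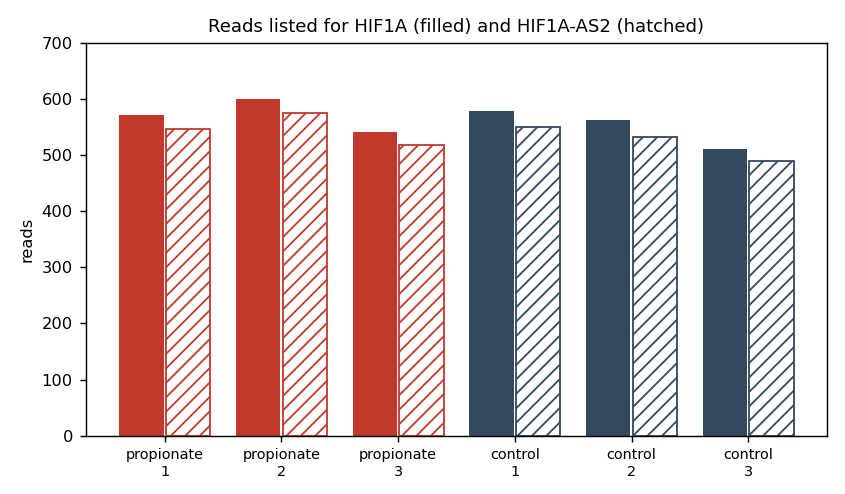
Reads (vertical axis) listed for HIF1A (filled bars) and for its antisense gene HIF1A-AS2 (hatched bars) in 3 propionate libraries (red) and 3 control libraries (dark). The antisense bar is 94.7% to 95.9% of the HIF1A bar in each library.

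HIF3A, whose splice forms include inhibitors of the other alpha subunits, had 6, 4 and 1 reads in propionate libraries and 5, 4 and 5 reads in control libraries. These counts stood at or near the floor in both groups. The ratio of summed reads was 0.751 (95% interval 0.308 to 1.78), so a difference was not detectable at this depth. Within each library, EPAS1 made up 3.67%, 3.36% and 3.90% of the reads of the 3 alpha subunit genes with propionate, and 0.850%, 0.702% and 0% in control. The share averaged 3.64% ± 0.272 with propionate and 0.517% ± 0.454 in control (SD, n = 3 each), a difference of 3.13 percentage points. By the floor of 3 reads, the 0 of 515 reads in control library 3 allows a share of up to 0.583%, and the exact binomial 95% interval reaches 0.714%. The groups did not overlap, and the two-sided exact permutation test gave p = 0.1, the smallest value that 3 against 3 libraries allow. The share is one of reads and not of molecules, since gene length and antisense reads in HIF1A may enter it. It needs no scaling between libraries.

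Among the dimer partners, ARNT was detected in every library and ARNT2 in 1. ARNT (chromosome 1, 150809705 to 150876768, minus strand, in GENCODE 29 on GRCh38) encodes HIF-1β, the partner of every HIF alpha subunit and of the aryl hydrocarbon receptor. Its level was 21.1, 20.5 and 23.7 CPM in propionate libraries and 16.1, 15.4 and 22.1 CPM in control libraries. Control library 3 lay among the propionate libraries, while the other control libraries lay below them. The log2 fold change was 0.28 (SE 0.147, edgeR adjusted p = 0.147). With the replicate number as a block it was 0.30 (edgeR adjusted p = 0.0430), and without control library 3 it was 0.46 (edgeR adjusted p = 0.0208), both past the threshold. ARNT2, a paralog of ARNT known mainly from neurons and kidney, had 4 reads, all in propionate library 1, and none in the other 5 libraries.

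The prolyl hydroxylase genes did not move alike. EGLN3, also called PHD3, is a gene that HIFs induce in many cell types. It was at 10.8, 8.84 and 7.45 CPM in propionate libraries and 4.90, 3.68 and 4.08 CPM in control libraries, from 139, 110 and 88 reads with propionate and 56, 43 and 49 reads in control. Every propionate library lay above every control library, and propionate library 1 was the highest. EGLN3 (chromosome 14, 33924231 to 34462774, minus strand, in GENCODE 29 on GRCh38) was 2.14-fold higher with propionate (95% interval 1.57 to 2.93, edgeR adjusted p = 0.000592). Its log2 fold change was 1.10 with all libraries and 0.95 without propionate library 1. GENCODE 29 places the gene SPTSSA within the EGLN3 span on the same strand with no shared exon base. SPTSSA was at 77.3 ± 7.22 CPM with propionate and 62.0 ± 4.38 CPM in control. It was also called higher (log2 fold change 0.32, edgeR adjusted p = 0.0153), and any link to EGLN3 was not tested.

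EGLN1, also called PHD2 and regarded as the main oxygen sensor of most cells, was at 9.93, 16.4 and 16.3 CPM in propionate libraries and 18.1, 19.4 and 19.4 CPM in control libraries. The groups did not overlap, and propionate library 1 stood well below the other propionate libraries. The log2 fold change was -0.42 (SE 0.168, unadjusted p = 0.0218, edgeR adjusted p = 0.0603), which misses the threshold. With the replicate block it was -0.44 (edgeR adjusted p = 0.0103) and passed. Without propionate library 1 it was -0.22 (edgeR adjusted p = 0.299), and without propionate library 2 or 3 it was -0.53 in both cases (edgeR adjusted p = 0.0387 and 0.0373). The value thus rests to a large part on propionate library 1, the same library in which EGLN3 was highest.

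EGLN2, also called PHD1, was at 34.7, 38.4 and 38.7 CPM in propionate libraries and 47.2, 41.1 and 42.0 CPM in control libraries. The groups did not overlap, and the nearest libraries differed by under 3 CPM. The log2 fold change was -0.22 (95% interval -0.44 to -0.01, edgeR adjusted p = 0.106), and -0.22 with the replicate block (edgeR adjusted p = 0.0487). The read-through gene RAB4B-EGLN2, which shares 2012 exon bases with EGLN2 in GENCODE 29, had 0 reads with propionate and 2 reads in control. EGLN3 made up 19.5%, 13.9% and 11.9% of the reads of the 3 hydroxylase genes with propionate, and 6.97%, 5.73% and 6.23% in control. The mean share was 15.1% ± 3.91 with propionate and 6.31% ± 0.624 in control (SD, n = 3 each). The groups did not overlap and the two-sided exact permutation test again gave its smallest possible p of 0.1.

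**Figure D3:**
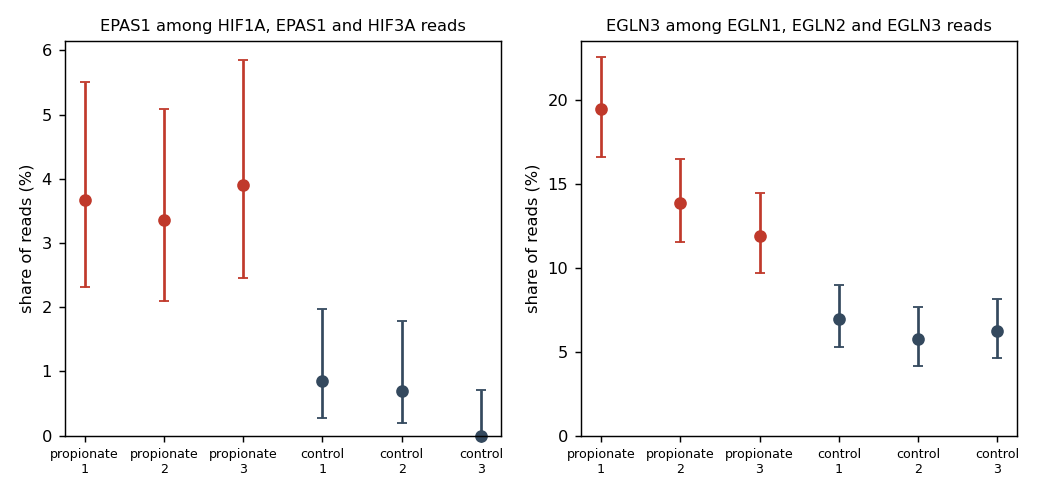
Percent of reads (vertical axes, from 0) from EPAS1 among the alpha subunit genes (left) and from EGLN3 among the prolyl hydroxylase genes (right) in each propionate library (red) and control library (dark), with exact binomial 95% intervals. EPAS1 shares are 3.36% to 3.90% with propionate and 0% to 0.850% in control; EGLN3 shares are 11.9% to 19.5% with propionate and 5.73% to 6.97% in control.

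HIF1AN and VHL, which act on HIF alpha proteins beside and after the prolyl hydroxylases, showed smaller differences. HIF1AN, also called FIH, hydroxylates an asparagine that HIF alpha needs to bind its coactivators. It was at 48.4, 54.4 and 53.1 CPM in propionate libraries and 45.8, 52.5 and 46.4 CPM in control libraries, with overlapping groups (log2 fold change 0.11, 95% interval -0.10 to 0.31, edgeR adjusted p = 0.442). GENCODE 29 has NDUFB8 on the opposite strand, sharing 325 exon bases with HIF1AN, so reads of both cannot be told apart without the strand setting. NDUFB8 was at 188.5 ± 16.9 CPM with propionate and 194.5 ± 12.1 CPM in control.

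VHL, the substrate receptor of the ubiquitin ligase that removes hydroxylated HIF alpha, was at 88.3, 85.5 and 93.3 CPM in propionate libraries and 86.1, 73.0 and 80.5 CPM in control libraries. The lowest propionate library lay just under the highest control library. The log2 fold change was 0.16 (95% interval -0.03 to 0.34, edgeR adjusted p = 0.193).

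**Figure D4:**
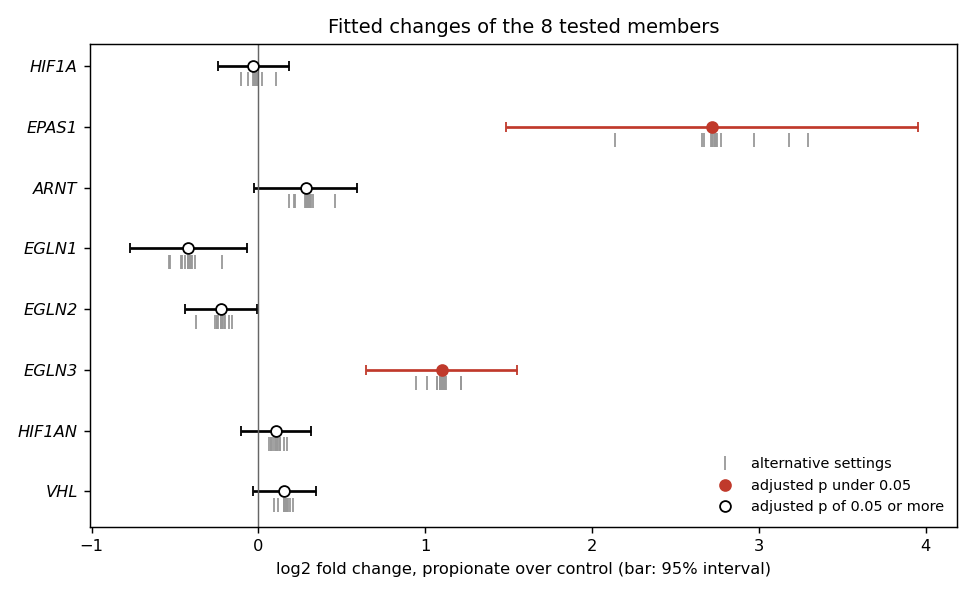
Log2 fold change, propionate over control (horizontal axis), of the 8 tested members with 95% intervals; filled red points passed the adjusted threshold, open points did not, and grey ticks are the values under the other settings tried. EPAS1 (2.72) and EGLN3 (1.10) stand right of 0, and every tick of these genes does too.

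The genes whose levels over the 6 libraries were most like those of the called members were found by Euclidean distance between centred log2 CPM, over 10790 other genes averaging at least 5 CPM. For EPAS1 these were LRRC73 (distance 0.788), SMIM24 (0.808) and LINC00341 (0.928). LRRC73 was at 14.7 ± 1.74 CPM with propionate and 2.43 ± 1.05 CPM in control. For EGLN3 they were CHST12 (0.243), a chondroitin sulfotransferase gene, PAG1 (0.252), an adaptor of SRC family kinases, and RPUSD1 (0.277). CHST12 was at 22.2 ± 4.26 CPM with propionate and 11.1 ± 0.866 CPM in control. None of these neighbours is a member or stands in the pathway lists described next.

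The other proteins around the HIF alpha subunits were followed with gene lists, whose counts stand beside 17.2% higher and 17.0% lower over all tested genes. Counts with the replicate block stand beside 2980 higher and 3074 lower of 13605 genes. Of 14 partners of VHL in its ubiquitin ligase, all were tested, 1 was higher and 2 were lower. USP20, a deubiquitinase that binds VHL, rose to 9.64 ± 1.58 CPM with propionate, against 5.09 ± 0.566 CPM in control (log2 fold change 0.92, edgeR adjusted p = 0.00145). RBX1, the RING subunit of the ligase, and UBE2D3, an E2 enzyme, fell by 0.31 and 0.23 on the log2 scale (edgeR adjusted p = 0.0117 and 0.0343). The median log2 fold change of the list was 0.02, beside -0.01 over all tested genes. With the replicate block 4 were higher and 4 lower. With any propionate replicate omitted, or replicate 1 or 3 of control, 1 was lower, and the median lay between -0.05 and 0.03 with single libraries left out.

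Of 27 other regulators of HIF alpha stability, 25 were tested, 2 were higher and 6 were lower, with a median log2 fold change of -0.05 that was 0.0041 without propionate library 1. The called share was 32%, near the 34.2% over all tested genes. STUB1, a chaperone-linked ubiquitin ligase, and SAT1, a polyamine acetyltransferase, were the higher ones. STUB1 was at 230.8 ± 13.0 CPM with propionate and 175.3 ± 12.4 CPM in control. GSK3B, SIAH1 and AJUBA had the smallest p among the lower ones. SIAH1, a ubiquitin ligase that targets prolyl hydroxylases, fell to 25.5 ± 4.85 CPM with propionate, against 41.5 ± 5.64 CPM in control (edgeR adjusted p = 0.000443). AJUBA, a LIM protein that bridges hydroxylases and VHL, fell by 0.72 on the log2 scale, and GSK3B, a kinase that marks HIF1A protein for breakdown, by 0.57. With the replicate block 4 were higher and 7 lower.

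Of 18 coactivators and transcription partners, 17 were tested, 3 were higher and 8 were lower, and the median log2 fold change was -0.16. This median was -0.09 without propionate library 2, -0.27 without propionate library 3 and -0.29 with the replicate block and GC correction. ARID1A, a SWI/SNF remodeler subunit, fell to 36.8 ± 3.37 CPM with propionate, against 86.3 ± 10.0 CPM in control. CREBBP, the paralog of the HIF coactivator EP300, fell by 1.09 on the log2 scale, and KAT5, an acetyltransferase, by 0.98 (edgeR adjusted p between 8.35e-08 and 4.53e-07 over these 3 genes). EP300, named beside its paralog, was also called lower, at 71.7 ± 6.61 CPM with propionate and 134.6 ± 7.44 CPM in control. CITED4, an inhibitor of coactivator binding, was at 3.09 ± 0.455 CPM with propionate and 0.398 ± 0.345 CPM in control (edgeR adjusted p = 0.000252). Like EPAS1, it passed the filter on low counts only through its propionate libraries, so its place among the tested genes depends on that rise. NCOA3 and JUN were the other higher members, at 0.84 and 0.35 on the log2 scale. Of 14 other bHLH-PAS factors and their PAS-domain coactivators, 10 were tested, 2 were higher (ARNTL and NCOA3) and 1 was lower (NCOA2). With the replicate block, without propionate library 3 and without control library 2, 2 of them were lower, and without propionate library 3, 1 was higher.

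Enzymes that share the cofactors of the HIF hydroxylases were called in both directions, at shares near those over all tested genes. Of 35 listed oxygen- and 2-oxoglutarate-dependent dioxygenases, 34 had reads and 31 were tested; 6 were higher (19.4%, beside 17.2% over all tested genes) and 7 lower (22.6%, beside 17.0%). The median log2 fold change was -0.08, and -0.04 without propionate library 2 or -0.12 without propionate library 1. The histone demethylase genes KDM5B and KDM4B and the collagen prolyl 3-hydroxylase gene P3H1 led the rises. KDM5B rose to 36.3 ± 2.71 CPM with propionate, against 19.2 ± 1.43 CPM in control. The DNA demethylase gene TET2 fell to 15.0 ± 0.550 CPM with propionate, against 33.2 ± 1.98 CPM in control, and KDM2B and MINA fell by 0.45 and 0.50 on the log2 scale. Leaving out single libraries gave 4 or 5 higher and 4 to 6 lower, with 4 lower without control library 2.

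Few genes that supply 2-oxoglutarate, succinate, fumarate or iron were called. Of 32 listed, 31 were tested, 2 were higher and 3 lower, with a median log2 fold change of -0.04 (-0.07 to -0.01 with single libraries left out). IDH3A, a subunit of the isocitrate dehydrogenase that makes 2-oxoglutarate in mitochondria, was 0.36 higher on the log2 scale, and DLST 0.28 higher. PCBP1, an iron chaperone that delivers iron to prolyl hydroxylases, fell to 198.6 ± 19.5 CPM with propionate, against 291.3 ± 26.4 CPM in control (edgeR adjusted p = 0.000110). SDHC, a subunit of succinate dehydrogenase, fell by 0.31 with overlapping groups (edgeR adjusted p = 0.0473). With the replicate block 4 were higher and 6 lower, and 1 was higher with replicate 1 or 2 of propionate, or replicate 1 or 3 of control, omitted.

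Genes that HIFs are known to induce were read out with 2 lists. Of 44 core hypoxia targets, all were tested, 14 were higher and 3 lower, and the median log2 fold change was 0.17, beside -0.01 over all tested genes. The higher share was 31.8%, beside 17.2% over all tested genes, and the lower share was 6.82%, beside 17.0%. SLC16A3, a lactate exporter, had the smallest p of the rises, at 130.9 ± 11.8 CPM with propionate and 45.6 ± 6.38 CPM in control. ANGPTL4, a secreted lipase inhibitor, and NDRG1, a stress-response gene, followed. ANGPTL4 was at or near the floor in control and passed the filter on low counts only through its propionate libraries. The lower members were STC2, HILPDA and GBE1, which fell by 0.88, 0.43 and 0.74 on the log2 scale. Many standard targets did not pass. Chosen after their values were seen, VEGFA, the angiogenic growth factor, was at 101.6 CPM with propionate and 88.4 CPM in control (edgeR adjusted p = 0.127), CA9 at 4.54 CPM with propionate and 4.21 CPM in control (edgeR adjusted p = 0.821), and LDHA at 1558 CPM with propionate and 1580 CPM in control (edgeR adjusted p = 0.861). With single libraries left out, 12 to 14 were higher and 3 lower.

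Of 23 listed genes tied to HIF-2α in intestine and kidney, all had reads and 20 were tested; 5 were higher (25%, beside 17.2% over all tested genes) and 4 lower (20%, beside 17.0%). The median log2 fold change was 0.24. With single libraries left out it lay between 0.15 (without propionate library 3, control library 2 or control library 3) and 0.31 (without propionate library 2). MT1X, a metallothionein, rose to 438.7 ± 9.71 CPM with propionate, against 254.0 ± 3.85 CPM in control. PTGES, a prostaglandin E synthase, and SLC2A1, a glucose transporter that is also in the core list, were also higher. PTGES passed the filter on low counts only through its propionate libraries. TRIB3, YAP1 and DLL4 had the smallest p among the lower genes, and DLL4, a Notch ligand, fell to 4.51 ± 0.451 CPM with propionate, against 9.44 ± 2.84 CPM in control. The iron absorption gene SLC11A2 was the remaining lower one, at 54.2 ± 2.02 CPM with propionate and 69.3 ± 1.28 CPM in control (edgeR adjusted p = 0.0046). CYBRD1, the duodenal iron reductase, was not called, at 4.69 CPM with propionate and 3.41 CPM in control (edgeR adjusted p = 0.208). HEPH, also in this list, was not called either, at 98.9 CPM with propionate and 113.3 CPM in control (edgeR adjusted p = 0.161). Lists were described by counts and were not tested as sets, and they share genes with each other.

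**Figure D5:**
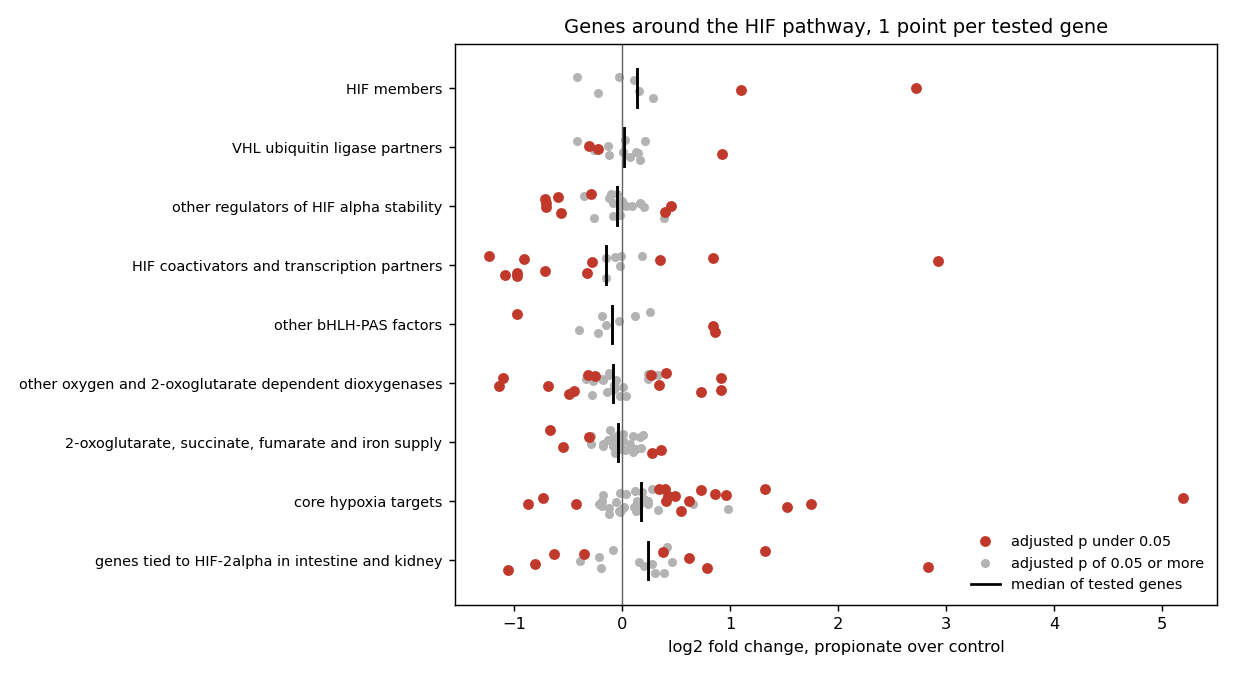
Log2 fold change, propionate over control (horizontal axis), of every tested gene of each list (rows); red points passed the adjusted threshold, grey points did not, and black bars are list medians. The core hypoxia targets (median 0.17) have 14 red points right of 0 and 3 left of it, and the coactivators (median -0.16) have 3 right and 8 left.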

How the data were processed

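Per the labels' protocols, RNA sequencing libraries were prepared with a Lexogen QuantSeq kit (500 ng total RNA as input), a name used for kits that read the 3′ ends of polyadenylated transcripts. The catalogue number was not matched to a kit and the tables hold no read positions, so whether gene length enters the counts is not known here. Bowtie2 and edgeR are named in the submitters' processing notes, with the builds hg19 and GRCh37. The read counter, strand setting and annotation: not given in the sources used here. What the authors deposited are raw counts, 1 table per library with 25737 lines and 24462 symbols; 286 repeated symbols were summed, none of them a member.

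Groups and replicate numbers come from the sample titles. The main test was edgeR 4.0.16 in R 4.3.3 (quasi-likelihood F test, TMM factors, filterByExpr, propionate over control, no covariate, Benjamini-Hochberg adjusted p under 0.05 over 13605 genes). SEs were derived from the F statistic, CPM values use the TMM factors, and the procedure was tested on simulated data. Replicates differed by more than sampling noise (chi-square per degree of freedom 6.01 to 8.85), so each was kept as a library of its own.

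Same-numbered libraries deviated together from their groups (r = 0.241, 0.396 and 0.442 for genes over 10 CPM, limit 0.1). The main test is unpaired, and pairs enter only through the replicate block and the sign flips within pairs. No label states a shared batch. Alternatives were RLE, upper-quartile and no scaling factors, limma-voom (limma 3.58.1), DESeq2 1.42.0, other filters, the replicate block, the block with a correction for transcript GC content (spline with 4 degrees of freedom, GENCODE 29) and leaving out each library. All 10 members are named; from each list the text names up to 3 called genes per direction by smallest p, and others where said. Symbols in a list that were no line of the tables were matched through RefSeq synonyms (5 symbols, 1 of them a repeat). Some results on single genes are not reported here. The members, lists and rules were chosen with earlier results of these data known.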

Additional observations from a re-analysis of the deposited data

How the results depend on the processing

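EPAS1 and EGLN3 were called higher under each of their 15 alternatives, with log2 fold changes of 2.14 to 3.29 for EPAS1 (edgeR, DESeq2 or limma adjusted p 0.000123 to 0.00716) and 0.95 to 1.22 for EGLN3 (1.05e-05 to 0.00678). HIF1AN was called under none of its 15. The count of higher members was 2 in the main test and 4 with the replicate block and GC correction, where ARNT (0.31, adjusted p = 0.0299) and VHL (0.17, adjusted p = 0.0336) also passed; with the block alone ARNT passed (0.30). The count of lower members, 0 in the main test, was 1 by limma-voom and with no filter, and 2 with the replicate block, with or without GC correction. The 1 was EGLN1 (-0.46 by limma-voom, -0.42 with no filter), and the 2 were EGLN1 and EGLN2 (-0.44 and -0.22 with the block, -0.38 and -0.37 with GC correction). Leaving out single libraries gave 2 or 3 higher and 0 or 1 lower members, with log2 fold changes of -0.53 to -0.22 for EGLN1, 0.19 to 0.46 for ARNT, -0.26 to -0.16 for EGLN2, -0.10 to 0.02 for HIF1A and 0.09 to 0.21 for VHL. HIF1A turned positive with the block and GC correction (0.10) and without control library 1 (0.022), uncalled in both. The causes were not tested. The shares of EPAS1 and EGLN3 differed by 2.87 to 3.29 and 6.59 to 10.4 percentage points when single libraries were left out, and sign flips within pairs gave an exact p of 0.25, the smallest for 3 pairs. The replicate block changed no other member's call. With the block and GC correction the list of 2-oxoglutarate, succinate, fumarate and iron supply had 4 higher and 13 lower genes. That setting also raised the lower count over all tested genes, with 2408 higher and 3302 lower. The main test had 2343 higher and 2316 lower, and the block alone 2980 and 3074. EPAS1, HIF3A and ARNT2 are limited by depth, with control counts near the floor of 3 reads per library.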
